A study of Mus musculus with 6 samples.

Results

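In left atria of adult mice, 521 of 34518 listed noncoding features had no counted read in any library of one group while they were present in the other. They were chosen from the deposited table by a value of 0 in all 3 sample columns of a group, which gave 370 features at 0 in FOG2_OE and 151 at 0 in WT, or 1.51% of the table together. The FOG2_OE group was 3 left atrial libraries of adult mice of the outbred CD1 stock that overexpressed FOG2, and the WT group 3 libraries from wild type CD1 mice of the same age class. Both groups had been kept without doxycycline for 1 week, and the labels name neither the promoter nor the cell type that drives FOG2. RNA was depleted of ribosomal and of polyadenylated RNA before sequencing. Nothing in the labels says whether a library came from 1 animal or from a pool.

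FOG2, encoded by Zfpm2, binds GATA transcription factors and raises or lowers the activity of their target genes. In the heart its main partner is GATA4, which acts together with TBX5 in atrial muscle. RNA without a poly(A) tail includes transcripts made at enhancers, antisense transcripts and unprocessed RNA, most of which are short-lived and scarce. Such transcripts are often made over the same stretch of DNA as several separate pieces.

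The effective libraries implied by the table held 7.24e+07 to 8.49e+07 reads in FOG2_OE and 7.12e+07 to 8.22e+07 reads in WT. The sample columns hold fitted values of the authors' model, which within a group are multiples of each other, so that a value shows the group's level and no spread between libraries. Low group totals can still be read as counts: 100% of those up to 4 lay within 0.25 of a whole number in both groups, and a total of 0 stands for 0 reads in each of the 3 libraries. Zfpm2 itself had 16 linked features, none of them at 0 in either group. Their summed level was 422 CPM (reads scaled to the effective library size) in FOG2_OE and 14.1 CPM in WT. Of the 16, 7 were called lower and 1 higher by the authors' deposited table, beside 4.65% and 1.16% of all features. Their median log2 fold change was -1.86, so that the sum does not describe most of them. Of 28 marker genes of atrial and ventricular muscle and of other cell types, 18 had a listed feature nearby. Among their 60 features a single one, near the atrial myosin light chain gene Myl7, stood at 0 in a group. That is near the share over the whole table, 1.51%. The summed levels of some markers were unequal between the groups, with no test: the 6 features of Myl7 had 2.19 CPM in FOG2_OE and 10.4 CPM in WT, and the 6 of Sln, another atrial gene, 5.64 and 12.6 CPM. The feature of the smooth muscle gene Acta2 had 0.221 and 0.00433 CPM, and the 2 of the fibroblast gene Col1a1 0.211 and 0.0690 CPM. Other markers of the same cell types went the other way. The atrial genes Nppa and Myl4 had 1.30 and 2.94 CPM in FOG2_OE against 1.11 and 2.60 CPM in WT. Tagln and Myh11 of smooth muscle had 0.0424 and 0.155 CPM against 0.0686 and 0.196 CPM. Dcn and Pdgfra of fibroblasts had 4.23 and 0.0584 CPM against 4.70 and 0.0688 CPM. The part of such differences in the results was not tested. These features are noncoding, so that the marker mRNAs themselves were not measured. In a bulk sample fewer cells of a type and less RNA per cell cannot be told apart.

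Sequences are shown for abundant members that lie over an annotated noncoding exon or a gene start, 2 from each set, to show what was present in one group and undetected in the other. Exon sequences are those of GENCODE M21 transcripts on mm10 and the start window is that of RefSeq on GRCm38.p6. Capitals mark the bases inside the feature, and exon sequences run 5′ to 3′ on the strand listed by the authors. The first, MSTRG.65701, lies in an exon of the long noncoding RNA Gm33474 (chr5:107055218-107055517, plus strand) and stood at 0 in FOG2_OE. The next, MSTRG.64122, lies inside the potassium channel interacting protein gene Kcnip4, over an exon of Gm43321, which GENCODE keeps in its class TEC (chr5:48820303-48820602, plus strand), and also stood at 0 in FOG2_OE. MSTRG.80406, at 0 in WT, lies in an exon of Hand2os1, the long noncoding RNA transcribed away from the heart transcription factor gene Hand2 (chr8:57291520-57291819, minus strand). MSTRG.66127, at 0 in WT, covers part of the window around a start of the gene 2900026A02Rik, printed on the strand of that gene (chr5:113163264-113163563, minus strand).
MSTRG.65701: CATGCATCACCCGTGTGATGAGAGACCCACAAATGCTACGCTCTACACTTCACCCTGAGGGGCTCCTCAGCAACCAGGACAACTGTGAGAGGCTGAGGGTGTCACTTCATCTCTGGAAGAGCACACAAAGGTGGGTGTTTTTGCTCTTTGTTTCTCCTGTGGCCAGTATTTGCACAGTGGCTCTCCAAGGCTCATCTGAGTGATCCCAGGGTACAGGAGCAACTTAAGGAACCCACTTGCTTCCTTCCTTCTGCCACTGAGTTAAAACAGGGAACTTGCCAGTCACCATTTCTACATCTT
MSTRG.64122: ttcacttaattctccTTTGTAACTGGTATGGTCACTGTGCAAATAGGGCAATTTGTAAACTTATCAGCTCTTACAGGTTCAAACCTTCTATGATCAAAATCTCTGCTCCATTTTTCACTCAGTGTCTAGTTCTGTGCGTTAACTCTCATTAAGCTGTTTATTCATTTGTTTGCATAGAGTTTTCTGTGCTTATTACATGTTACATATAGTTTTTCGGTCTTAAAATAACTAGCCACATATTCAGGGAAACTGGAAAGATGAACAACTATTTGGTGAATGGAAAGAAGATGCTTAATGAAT
MSTRG.80406: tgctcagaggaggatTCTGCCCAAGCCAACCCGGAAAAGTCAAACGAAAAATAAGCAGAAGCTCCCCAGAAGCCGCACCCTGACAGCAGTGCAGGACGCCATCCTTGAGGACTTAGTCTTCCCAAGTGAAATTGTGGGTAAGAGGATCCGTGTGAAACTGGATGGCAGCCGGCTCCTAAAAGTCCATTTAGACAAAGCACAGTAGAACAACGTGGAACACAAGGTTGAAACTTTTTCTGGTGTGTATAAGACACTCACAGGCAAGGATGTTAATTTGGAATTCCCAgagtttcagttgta
MSTRG.66127: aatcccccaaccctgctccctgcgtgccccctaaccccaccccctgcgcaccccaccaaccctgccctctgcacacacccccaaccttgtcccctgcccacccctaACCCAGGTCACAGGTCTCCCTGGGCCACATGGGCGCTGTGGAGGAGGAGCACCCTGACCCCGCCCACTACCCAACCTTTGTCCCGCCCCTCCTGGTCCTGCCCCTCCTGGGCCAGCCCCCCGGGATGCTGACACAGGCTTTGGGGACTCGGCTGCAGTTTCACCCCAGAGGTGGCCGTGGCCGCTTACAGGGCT
None of the 31-base words of the capitals of MSTRG.65701 (270 words) or MSTRG.64122 (255 words) occurred in a transcript of another annotated gene. For MSTRG.80406, 98 of 241 words (40.7%) occurred in transcripts of 20 other genes, among them the ribosomal protein gene Rps7 and pseudogenes, and the same stretch is annotated as the pseudogene Gm17994. Reads there may belong to these copies, and its counts are uncertain for that reason. The start window of MSTRG.66127 had a GC content of 68.7%.

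The set at 0 in FOG2_OE was the larger one in every range of counts. Features at 0 in FOG2_OE outnumbered those at 0 in WT 2.45 to 1, in libraries of nearly equal depth. Among features with 10 to 15 fitted counts over the 3 WT libraries, 135 of 5658 (2.39%) stood at 0 in FOG2_OE. Among features with 10 to 15 fitted counts over the 3 FOG2_OE libraries, 79 of 5624 (1.40%) stood at 0 in WT. At 20 to 30 counts the shares were 1.33% and 0.312%, and at 50 to 100 counts 0.352% (14 features) and 0.0554% (2 features). At 100 counts or more the sets held 3 of 5822 and 2 of 5314 features. Over all 34518 features the log2 fold changes had a median of -0.21 by the authors' deposited table, so that the typical feature was 1.16-fold lower in FOG2_OE.

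**Figure D1:**
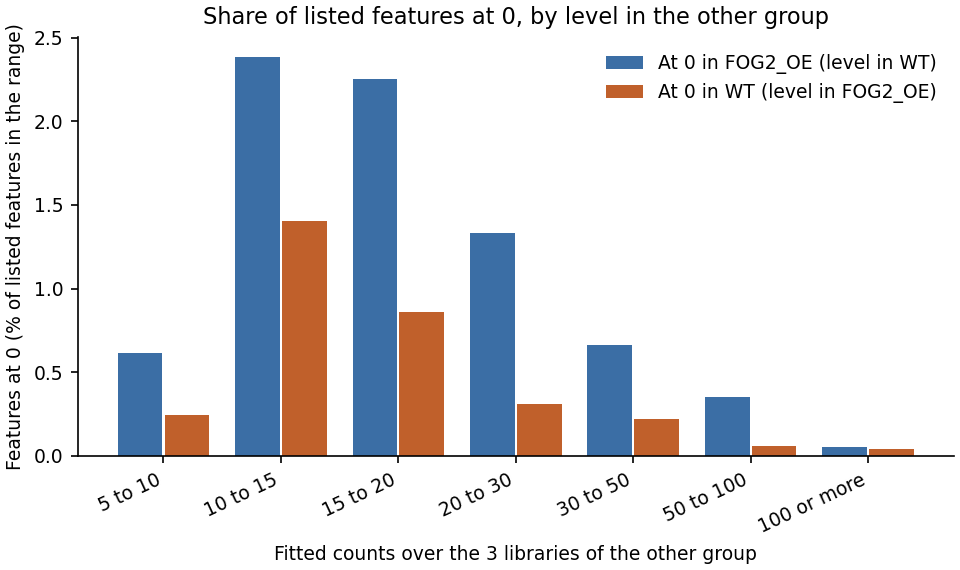
Share of listed features with 0 reads in one group (vertical axis, percent) by the fitted counts over the 3 libraries of the other group (horizontal axis), in blue for 0 in FOG2_OE and in orange for 0 in WT. The blue bar is the higher one in every range, with 2.39% against 1.40% at 10 to 15 counts, and both shares are highest in that range, above the 0.617% and 0.245% at 5 to 10 counts, and fall from there on.

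The threshold at 0 cut through a continuous range. The nearest features outside it had a total of 1 count in the group: 433 features in FOG2_OE, with a median of 14.6 counts over WT, and 178 in WT, with a median of 12.8 counts over FOG2_OE. The members had medians of 16.3 and 14.2 counts in the other group. Just inside, the least abundant members were MSTRG.10716 inside an exon of Lemd3 (6.14 counts over WT), MSTRG.71485 (6.81) and MSTRG.11391 (6.84), and for WT the long noncoding RNA Gm20745 (6.04 counts over FOG2_OE), MSTRG.31571 (6.16) and MSTRG.17258 (6.99). Just outside, MSTRG.15387, MSTRG.3989 and MSTRG.64664 had a fitted total of 0.98 in FOG2_OE with 15.8, 11.5 and 11.4 counts over WT. MSTRG.44234, MSTRG.52963 and MSTRG.16241 had a fitted total of 0.98 to 0.99 in WT with 14.2, 11.2 and 11.5 counts over FOG2_OE. No listed feature had under 5.84 counts in its higher group, so that a feature at 0 in a group is listed only where the other group had reads.

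Most members were scarce where they were present. The median level was 0.0704 CPM in WT for features at 0 in FOG2_OE and 0.0600 CPM in FOG2_OE for features at 0 in WT. Of the former 323 (87.3%) and of the latter 138 (91.4%) had under 30 counts over the 3 libraries. A count of 0 over a group allows up to 3 counts, or 0.0127 CPM in FOG2_OE and 0.0129 CPM in WT, for counting error only. Against that limit the members were at least 2.09- to 45.8-fold lower in FOG2_OE (median at least 5.56-fold) and at least 1.97- to 535-fold higher (median at least 4.64-fold). A bound of 10-fold or more was reached by 49 of 370 and by 11 of 151 members. Every fold given here as at least a value takes the fitted level of the other group without error. It allows for no spread between libraries either. Such folds are therefore nominal, and for scarce members they are not secure lower limits.

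**Figure D2:**
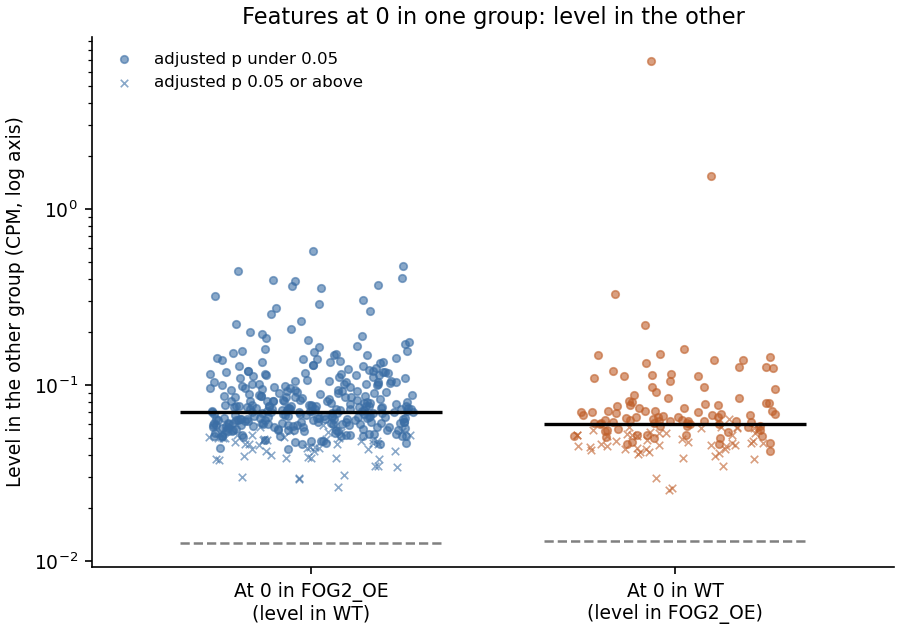
Level of each member in the group where it was present (CPM, log axis), for 370 features at 0 in FOG2_OE (blue) and 151 at 0 in WT (orange); black lines are medians, dashed lines the level that 3 counts would give in the group at 0, circles have an adjusted p under 0.05 in the authors' table and crosses do not. Medians are 0.0704 and 0.0600 CPM, and a pair of orange points at 1.53 and 6.92 CPM lie above every blue point.

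In the authors' deposited table, 311 of the 370 features at 0 in FOG2_OE passed a Benjamini-Hochberg adjusted p of 0.05 in the likelihood ratio test, where 4.65% of all listed features were called lower. Of the 151 at 0 in WT, 97 did, where 1.16% of all were called higher. The same contrast chose the members, so that these shares describe the sets and support nothing about them. When the same likelihood ratios were read against F with the 4 residual degrees of freedom that 3 against 3 libraries leave, 0 members and 0 of all listed features were called (lowest adjusted p among members 0.583, with 346 and 134 members at an unadjusted p under 0.05), so that every call named here rests on the authors' test. The 59 and 54 members without a call had at most 13.7 and 15.1 counts in the other group. The labels do not say that the libraries came from separate animals, and the p-values measure only the spread between them. The biological coefficient of variation, the spread between libraries implied by the deposited likelihood ratio, had a median of 72.1% for features at 0 in FOG2_OE and 80.1% for those at 0 in WT, against 49.998% over all features. It was over 100% for 12 and 18 members. The fitted columns do not show whether such a feature had its reads in all 3 libraries.

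The most abundant feature lost in FOG2_OE was MSTRG.13493 (chromosome 11, 58892749 to 58893464), which overlaps an exon of the zinc finger gene Zfp39 and is listed antisense to it. Its fitted counts were 41.2, 45.4 and 47.6 in WT replicates 1 to 3 and 0 in each FOG2_OE library. With 0.579 CPM in WT it was at least 45.8-fold lower (adjusted p = 8.5e-17 by the authors' deposited table, implied coefficient of variation 32.3%). MSTRG.11579 and MSTRG.11574, 4.16 and 6.005 kb from the start of the predicted gene Gm11983, followed with 0.476 and 0.443 CPM in WT. Their implied coefficients of variation were higher, 74.3% and 74.1%, and so were their adjusted p-values by the authors' deposited table, 6.4e-06 and 8.4e-06. MSTRG.11578 over an exon of Gm11983 (0.305 CPM in WT) belongs to the same locus, and its adjusted p was 6.6e-05 by the authors' deposited table.

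The intergenic MSTRG.66357 had fitted counts of 28.7, 31.6 and 33.2 in WT and lay 266 kb from Med13l, which encodes a subunit of the Mediator complex of transcription. It was at least 31.9-fold lower in FOG2_OE (adjusted p = 1.7e-12 by the authors' deposited table). MSTRG.64112, listed antisense to Kcnip4, had 0.393 CPM in WT (at least 31.1-fold lower). MSTRG.22533 lay 5.41 kb from the start of the serpin gene Serpinb6b, with 0.389 CPM in WT, and MSTRG.51007 66.3 kb from Cbln4, a gene of a secreted synaptic organizer, with 0.369 CPM. MSTRG.82667 inside Gm20388 had 0.363 CPM. MSTRG.4977 and MSTRG.4973, with 0.353 and 0.290 CPM, lay 43.7 and 42.4 kb from Tnfsf18, which encodes a cytokine of the tumour necrosis factor family. MSTRG.65701 in the long noncoding RNA Gm33474, printed above, had fitted counts of 22.8, 25.1 and 26.3 in WT and was at least 25.3-fold lower. The WT fitted counts of the 12 are all well above the 3 counts that a 0 allows over the group.

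Among features at 0 in WT, MSTRG.66127 stood far above the rest. It had fitted counts of 551, 501 and 587 in FOG2_OE replicates 1 to 3 and 0 in each WT library. It spans chromosome 5 from 113162675 to 113163457 over an exon of 2900026A02Rik, on the opposite listed strand. RefSeq has a start of this gene there, while the nearest protein-coding start in GENCODE M21 lies 57.8 kb away. Its level of 6.92 CPM in FOG2_OE was at least 535-fold higher than in WT (adjusted p = 1.3e-45 by the authors' deposited table, implied coefficient of variation 31.5%). It alone made up 37.0% of the summed level of the 151 features. MSTRG.29266 inside Cdh12, a cadherin gene (chromosome 15, 21296740 to 21299593), came next, with fitted counts of 122, 111 and 130. It was at least 118-fold higher, but with an implied coefficient of variation of 87.5% its adjusted p by the authors' deposited table was 1.6e-06. The other 149 features had at most 0.328 CPM.

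MSTRG.68151 and MSTRG.68152 lay 80.8 and 79.2 kb from Slc25a13, the gene of a mitochondrial aspartate and glutamate carrier, with 0.328 and 0.149 CPM in FOG2_OE. MSTRG.21767 overlaps the processed pseudogene Gm8616 and had 0.218 CPM; reads of a pseudogene can be shared with its parent gene and its count is uncertain. MSTRG.80406 in Hand2os1, with fitted counts of 12.8, 11.7 and 13.7 in FOG2_OE, was at least 12.4-fold higher (adjusted p = 0.00049 by the authors' deposited table). As shown beside its sequence, these counts may include reads of Rps7 copies. MSTRG.80527 and MSTRG.80528, 44.4 and 46.4 kb from the neuropeptide Y receptor gene Npy1r, had 0.147 and 0.134 CPM, and both were at least 10.3-fold higher. MSTRG.51956 and MSTRG.51953 in a gene desert beyond Tbl1xr1 had 0.144 and 0.127 CPM, MSTRG.38750 103 kb from Rmdn2 had 0.139 CPM, and MSTRG.83474 over an exon of the stress-induced gene Sesn3 had 0.138 CPM. The last lies in an interval at Endod1 and Sesn3 (chromosome 9, 14308382 to 14367348) where 3 of 8 listed features were at 0 in WT. The 8 together had 303 CPM in FOG2_OE and 0.492 CPM in WT, and the 3 at 0 in WT held 0.0898% of the FOG2_OE level.

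**Figure D3:**
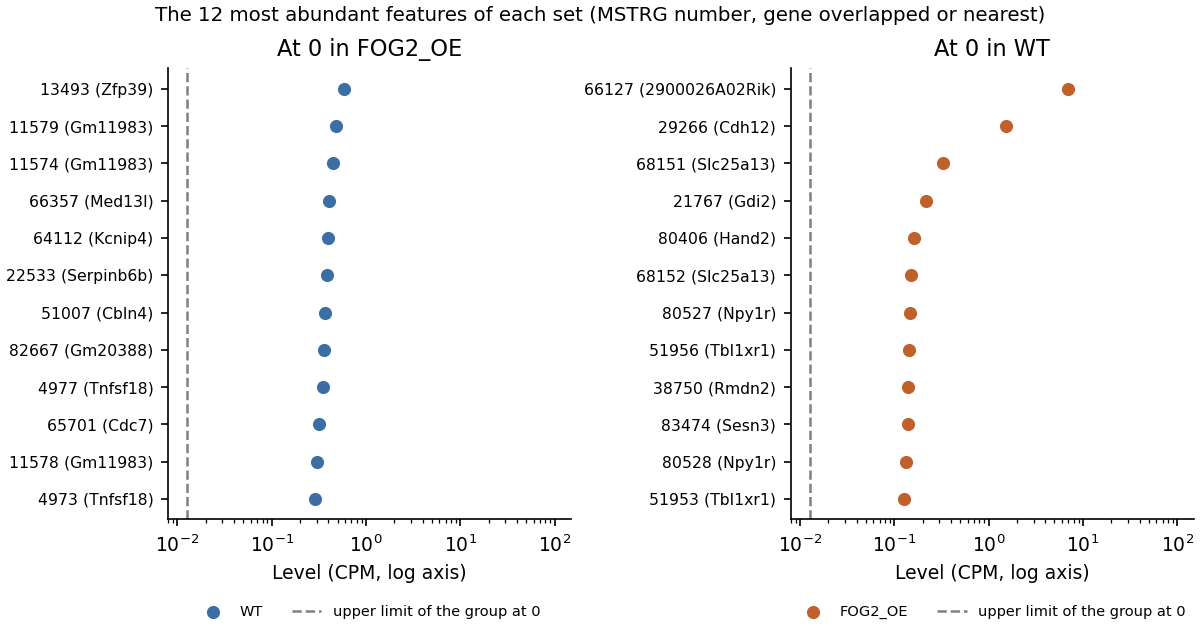
The 12 members of each set with the highest level in the group where they were present (CPM, log axis), named by their MSTRG number with the gene overlapped or nearest; the dashed line is the level 3 counts would give in the group at 0. At 0 in FOG2_OE the 12 lie between 0.290 and 0.579 CPM, while at 0 in WT they run from 0.127 to 6.92 CPM.

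Both sets lay farther from genes than the table as a whole, by a measure the choice of members did not use. The median distance to the start of a protein-coding gene was 48.4 kb for features at 0 in FOG2_OE and 44.5 kb for those at 0 in WT, against 22.2 kb over all listed features. Beyond 100 kb lay 126 (34.1%) and 50 (33.1%) members, against 16.7% of all features. Within 10 kb lay 70 (18.9%) and 26 (17.2%), against 29.99%. Over all listed features the median distance was 20.7 to 22.4 kb in every range of counts. Members with 30 to 50 counts in the other group had medians of 80.3 kb (30 features at 0 in FOG2_OE) and 46.4 kb (9 features at 0 in WT). The exception was the range of 100 counts or more, where the 3 features at 0 in FOG2_OE had a median of 6.01 kb. Members that lie together share a distance. Taken once per locus, with members within 100 kb of each other joined, the median was 41.0 kb over 240 loci and 44.0 kb over 120 loci. Of these loci 26.7% and 31.7% lay beyond 100 kb. Members alone in their locus had medians of 34.6 kb (at 0 in FOG2_OE) and 43.5 kb (at 0 in WT). No value per locus is given for all listed features, so that the values per locus have no like value beside them. No test was run on these distances.

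**Figure D4:**
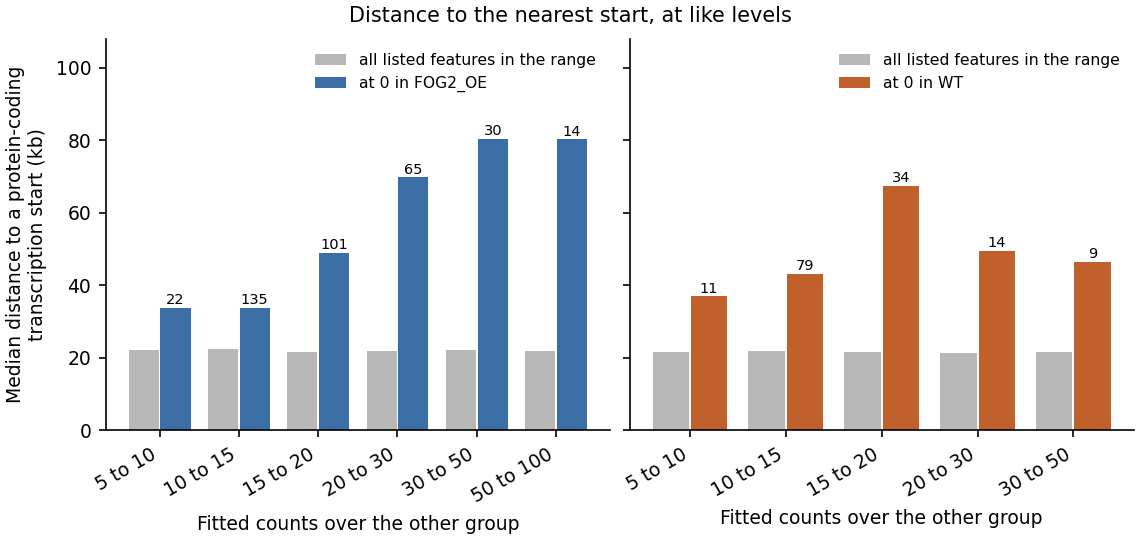
Median distance to the nearest protein-coding transcription start (kb) for members (coloured, with their number above the bar) and for all listed features (grey) with the same range of fitted counts in the other group; ranges with under 5 members are left out. The grey bars stay near 22 kb, and the coloured bars are higher in each range, at 33.7 to 80.3 kb for 0 in FOG2_OE and 37.0 to 67.5 kb for 0 in WT.

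Members were short. The median width was 149 bases for features at 0 in FOG2_OE and 135 bases for those at 0 in WT, against 238 bases over all features, and 86.5% and 91.4% were under 300 bases, against 57.0%. Scarce features were short in general: among all features with 10 to 15 counts in WT the median was 137 bases, and the members in that range had 120 bases. With 20 to 30 counts in WT, the medians of members and of all features were 229 and 228 bases, and with 50 to 100 counts 766.5 and 649 bases. The widest member of each set was an annotated gene. They were 4930429D17Rik at 0 in FOG2_OE (68655 bases, 0.0437 CPM in WT) and Gm20745 at 0 in WT (7751 bases, 0.0255 CPM in FOG2_OE). They were also the only 2 members listed with a gene symbol.

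The shares of intergenic and antisense features were near those of the whole table, but features over protein-coding or long noncoding RNA exons were less common. Of the features at 0 in FOG2_OE 206 (55.7%) were intergenic and 121 (32.7%) were listed antisense to a protein-coding gene, and of those at 0 in WT 80 (53.0%) and 42 (27.8%), against 51.2% and 27.8% of all features. The library kit that the labels give keeps no strand information, and the listed strand is not a measurement. Features over a protein-coding exon on either strand were less common, at 27 (7.30%) and 10 (6.62%), against 18.1% of all. Exons of long noncoding RNAs made up 10 (2.70%) and 3 (1.99%) members, against 4.49% of all features. None of the 95 features over small RNA genes and none of the 697 over a protein-coding exon on its own strand was at 0 in a group. The plus strand held 190 of 370 and 73 of 151 members.

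Some members of a set lay within 100 kb of each other. Joined at 100 kb, the 370 features at 0 in FOG2_OE formed 240 loci, of which 43 held 2 or more members and 173 members (46.8%) in all. The 151 at 0 in WT formed 120 loci, of which 19 held 2 or more and 50 members (33.1%). The like share over all listed features is not given here, so that closer grouping than in the whole table cannot be read from these values. Neighbouring pieces may belong to 1 transcript, so that they are not separate observations, and counted as loci the sets stood 2 to 1. No member overlapped another of its set. The nearest feature present in both groups lay within 10 kb for 265 and 87 members. Of the 222 such neighbours of features at 0 in FOG2_OE, 77 were called lower and 0 higher by the authors' deposited table, with a median log2 fold change of -2.30 (4.65% called lower and a median of -0.21 over all features). Of the 79 neighbours of features at 0 in WT, 15 were called higher and 0 lower, with a median of 0.86 (1.16% called higher over all features). The neighbours come from the same libraries and are no independent check.

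**Figure D5:**
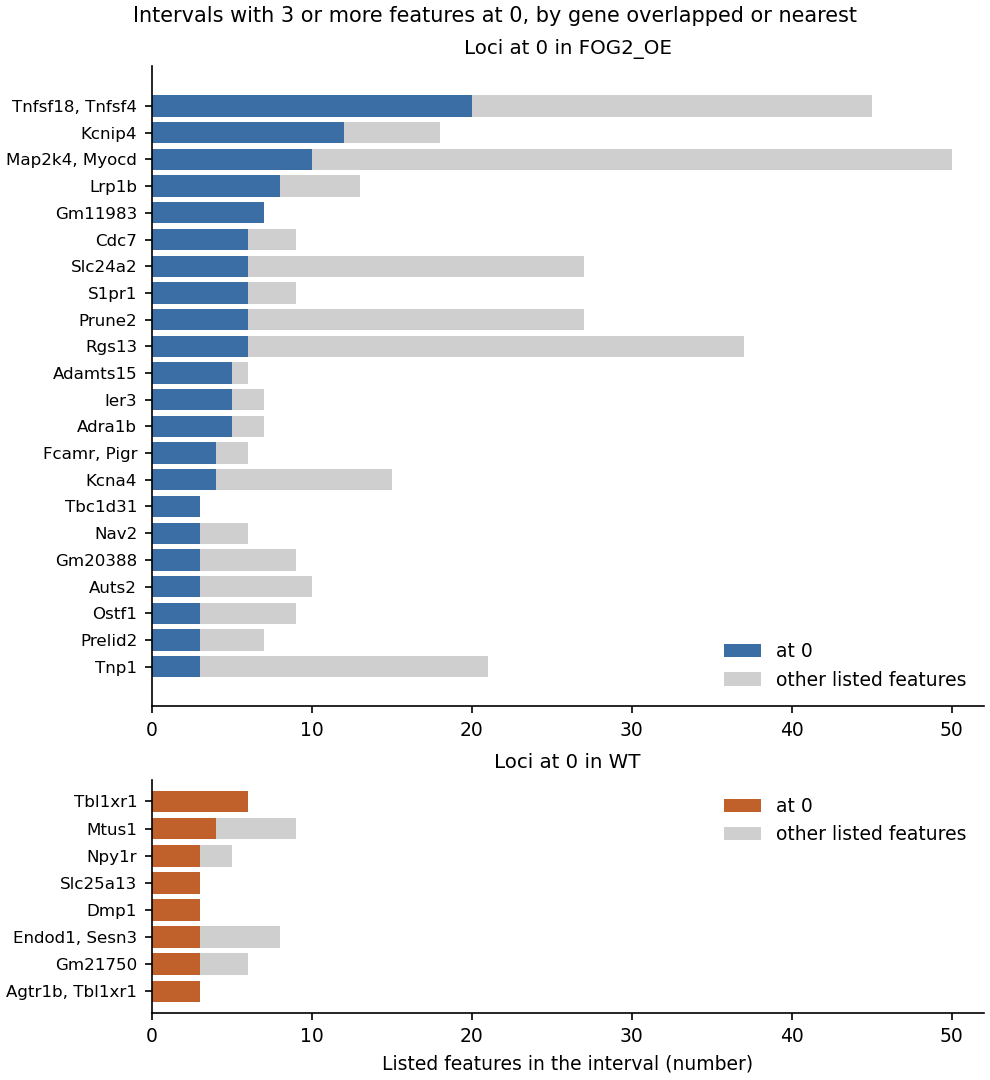
Number of listed features (horizontal axis) in each of the 22 intervals with 3 or more features at 0 in FOG2_OE (top) and the 8 with 3 or more at 0 in WT (bottom), named by the genes overlapped or nearest; the coloured part is at 0 and the grey part is above 0 in both groups. The interval at Tnfsf4 and Tnfsf18 holds 20 members among 45 features, and that at Gm11983 holds 7 of 7. Each interval runs from its first to its last member, so that listed features just outside are not counted.

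The locus with the most features at 0 in FOG2_OE was that of Tnfsf4 and Tnfsf18, with 20 members over 102 kb (chromosome 1, 161410931 to 161512708), all called lower by the authors' deposited table. Their levels in WT ran from 0.0533 to 0.353 CPM. They held 26.6% of the level of the interval in WT, and the other 25 listed features had 6.59 CPM in WT and 0.241 CPM in FOG2_OE. Kcnip4 had 23 linked features, and 12 of the 18 listed in an interval of 81.5 kb inside it stood at 0 (chromosome 5, 48779849 to 48861314). Their levels in WT were 0.0646 to 0.393 CPM. The 12 held 7.84% of the level of the interval, and the most abundant of the other 6, MSTRG.64113, was not at 0 but at 0.0254 CPM in FOG2_OE against 6.82 CPM in WT. Between Myocd, the gene of the muscle coactivator myocardin, and Map2k4, 10 of 50 listed features were at 0 (chromosome 11, 65405857 to 65585083). They made up 1.42% of the level there, and the other 40 features had 4.08 CPM in FOG2_OE and 56.3 CPM in WT. In each of these 3 loci the most abundant listed feature remained above 0 in FOG2_OE.

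In some intervals every listed feature, or all but a few, was at 0. Each interval runs from its first to its last member. Listed features just outside it are not counted, so that a full share is partly set by this rule. All 7 listed features at Gm11983 (chromosome 11, 6830439 to 6842723) were at 0 in FOG2_OE, with 1.62 CPM in WT, which makes the interval at least 128-fold lower. All 3 near Tbc1d31 and Fam83a (chromosome 15, 57947893 to 57957028) were at 0, with 0.501 CPM in WT (at least 39.6-fold lower). At Adamts15, a gene of a matrix protease, 5 of 6 were at 0, and the interval held a total of 1 count in FOG2_OE against 0.480 CPM in WT. Inside Lrp1b, a gene of the low density lipoprotein receptor family, 8 of 13 were at 0 and held 67.5% of the level, and the 13 together had 0.0378 CPM in FOG2_OE against 1.11 CPM in WT. Near Cdc7, 6 of 9 features of the Gm33474 region were at 0, and the 9 together had 0.0770 CPM in FOG2_OE against 3.17 CPM in WT.

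Loci at 0 in WT were smaller. The largest was a gene desert whose nearest gene is Tbl1xr1, which encodes a subunit of a corepressor complex (chromosome 3, 21409245 to 21489645). All 6 listed features there were at 0 in WT, with 0.0435 to 0.144 CPM and a sum of 0.50005 CPM in FOG2_OE (at least 38.6-fold higher), and 5 of them were called higher by the authors' deposited table. A further 3 of 3 lay on the same chromosome nearby (chromosome 3, 21086810 to 21243456), with 0.254 CPM in FOG2_OE. All 3 near Slc25a13 (0.548 CPM in FOG2_OE, at least 42.3-fold higher) and all 3 near Dmp1, a gene of a bone matrix protein (0.240 CPM, at least 18.5-fold higher), were at 0 in WT as well. In the interval near the tumour suppressor gene Mtus1 4 of 9 were at 0, and in that near Npy1r 3 of 5. They lay beside more abundant features that were present in both groups. Npy1r had 15 linked features in all. In all, 11 loci of 2 or more features at 0 in FOG2_OE and 7 of those at 0 in WT had every listed feature of the interval at 0. Both counts depend on where the intervals end, since each ends at a member.

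By 20 gene lists on cardiac function and cell types, 32 features at 0 in FOG2_OE and 10 at 0 in WT were linked to a listed gene. A link was an overlap or a start within 100 kb. The share of all features with such a link is not given here, so that these counts show no excess. Counts at 0 in each list stand beside 370 in FOG2_OE and 151 in WT of all 34518 features. The rhythm channel and calcium handling list had 236 features, with 13 of them undetected in FOG2_OE and 2 in WT. The list as a whole had 54 features called lower and 9 higher by the authors' deposited table, where 4.65% and 1.16% of all listed features were, and a median log2 fold change of -0.66 against -0.21 over all features. Of the 13, 12 were those of Kcnip4. Kcnip4 also held 19 of the 54 lower calls of the list, and Hcn4 held 6 of the 9 higher calls.

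The G protein signalling list had 186 features, with 14 at 0 in FOG2_OE and 3 in WT, and a median log2 fold change of -0.96 (51 called lower and 10 higher by the authors' deposited table, beside 4.65% and 1.16% of all features). Its members at 0 in FOG2_OE were 4 features of Rgs13 and 2 of Rgs1, which encode regulators that shorten G protein signals, 5 of the adrenergic receptor gene Adra1b, and 1 each of Gnao1, a G protein subunit gene, the adenylyl cyclase gene Adcy5 and Rgs6. The 5 inside Adra1b had 0.0478 to 0.0808 CPM in WT and were all called lower by the authors' deposited table. They were 5 of 15 features linked to Adra1b, which together had 8.30 CPM in WT and 0.757 CPM in FOG2_OE. The Rgs6 feature, MSTRG.20052, had 10.2 counts over WT and an adjusted p of 0.085 by the authors' deposited table. The 3 members of the list at 0 in WT were all near Npy1r. Of the 51 lower calls, 30 were at Rgs13, which had 35 of the 186 features, and 8 at Adra1b. Npy1r held 8 of the 10 higher calls, so that most calls of the list came from a few loci.

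Pacemaker and conduction genes had 1 feature at 0 in FOG2_OE, that of Rgs6, and 3 at 0 in WT, among 40 features with a median log2 fold change of 0.17 (1 called lower and 10 higher by the authors' deposited table, beside 4.65% and 1.16% of all features). MSTRG.85255, 6.67 kb from the start of the pacemaker channel gene Hcn4, had 14.9 counts over FOG2_OE and 0 over WT (0.0628 CPM, at least 4.85-fold higher, adjusted p = 0.017 by the authors' deposited table). MSTRG.36780, 0.637 kb from the start of Cpne5, a gene of a calcium-binding copine, had 14.95 counts over FOG2_OE (adjusted p = 0.012 by the authors' deposited table). MSTRG.36784, also near Cpne5, had 12.4 counts and did not pass (adjusted p = 0.067 by the authors' deposited table). All 3 rest on at most 14.95 counts over 3 libraries. Of the 10 higher calls of the list, 6 were at Hcn4 and 2 at Cpne5.

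The lists of atrial muscle (184 features), cardiac transcription factors (149), sarcomere (167) and genes named for atrial fibrillation loci (199) each had 1 to 3 members. Those at 0 in FOG2_OE were MSTRG.11501 9.95 kb from Myl7 (11.7 counts over WT, adjusted p = 0.062 by the authors' deposited table), MSTRG.13995 and MSTRG.13998 inside Myocd (17.0 and 11.9 counts, adjusted p = 0.0048 and 0.025 by the authors' deposited table) and MSTRG.2080 inside Erbb4, a receptor gene of neuregulin signalling (8.92 counts, adjusted p = 0.11 by the authors' deposited table). The 11 features linked to Myocd had a median log2 fold change of 0.18 by the authors' deposited table. Those at 0 in WT were MSTRG.80406 in Hand2os1, MSTRG.85255 near Hcn4, MSTRG.72227 37.0 kb from the atrial potassium channel gene Kcna5 (9.17 counts over FOG2_OE) and MSTRG.55573 inside the sarcomere gene Myoz2 (12.6 counts), with adjusted p of 0.069 and 0.076 by the authors' deposited table. Outside these lists, 1 feature of the neuronal gene Slc18a2 was at 0 in WT and 1 near the mitotic kinase gene Plk1 was at 0 in FOG2_OE, and neither had an adjusted p under 0.05 by the authors' deposited table. The lists of endothelial, smooth muscle, immune, epicardial and adipocyte, lung and thymus, matrix, metabolic, stress, ventricular and interferon genes had no member. These lists had 7 to 88 features each, and members made up 1.51% of the table, so that an empty list says little. Links run to protein-coding genes, so that the list of named long noncoding RNAs held no feature.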

How the data were processed

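RNA of left atria was measured in 3 FOG2_OE and 3 WT libraries, grouped by title. The submitters' processing notes list edgeR, deepTools, STAR and HTSeq (version 0.6.0) for mm10, without saying what each did. The authors' deposited table holds, for each feature, the p-value and its adjusted form, the likelihood ratio score, and log2 values of fold change and mean CPM. Its 6 sample columns are, from the deposited values, fitted scores on the scale of counts (ratios within a group constant to 1.8e-14), so no count test, left-out replicate or replicate spread could be had.

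Effective library sizes came from 788 features with a mean above 300 fitted counts in each group. Dispersions were solved from the deposited likelihood ratios, a step tested on simulated data (FOG2_OE against WT, 34420 features, median error 0.302%). Features were placed on GENCODE M21, and positions count from 1. Named features are the 12 most abundant of each set, those linked to the lists, the 3 largest loci, features of Zfpm2 and the 3 nearest to the threshold on each side; other loci were named after their values were seen. One feature that the lists name is not reported here. Members and lists were chosen with earlier results of these data known. Scripts ran under Python 3.11.15 with pandas 2.3.3, scipy 1.17.1 and numpy 2.4.6.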

Additional observations from a re-analysis of the deposited data

How the results depend on the processing

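The number of features at 0 depends on where the threshold is set. With at most 1 fitted count over the group the sets held 803 (FOG2_OE) and 329 (WT) features, and with at most 3 counts 1926 and 933. With a mean of at least 10 fitted counts per library in the other group they held 47 and 13. Joined at 10 kb they made 286 and 133 loci. FOG2_OE had the larger set each time. Calls among the 370 and 151 features were 311 and 97 as deposited, beside 1605 lower and 402 higher calls over all 34518 features. At an adjusted p under 0.01 of the authors' test they were 166 and 32, beside 929 and 210 over all features. With the median ratio centred at 1 they were 275 and 111, beside 1199 and 560 over all features. Over features with a mean of at least 5 fitted counts per library, 47 and 13 members passed that filter and all of them were called. Calls over all features that passed were 1227 lower and 303 higher. Members are at 0 in 3 libraries, so that they passed only through the group where they were present. The filter largely fixed these counts of members, and they support nothing. With the likelihood ratio referred to an F distribution they were 32 and 5 with 10 residual degrees of freedom, and 0 and 0 with 4 (the lowest adjusted p was 0.583, and 346 and 134 had an unadjusted p under 0.05). With links at 10 kb, 27 and 5 members touched the gene lists in place of 32 and 10, and 34 and 13 loci of 2 or more members formed at 10 kb in place of 43 and 19. No paired analysis was possible because the columns hold fitted values, which carry no deviation of a replicate from its group. For the same reason leaving out a replicate, the replicate block, DESeq2 and edgeR's quasi-likelihood test were not run. For counting error only, depth limits every 0 to at most 3 counts over a group.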

Other observations

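Features at 0 were spread over the chromosomes, with some concentrated by their loci. Chromosomes 1 and 11 held 44 and 45 of the 370 features at 0 in FOG2_OE (11.9% and 12.2%, against 6.30% and 7.05% of all features), in 14 and 24 loci. Chromosome X held 2 of them and 5 of the 151 features at 0 in WT. Of 25 listed features on chromosome Y none was at 0 in either group.

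In 3 places a feature at 0 in FOG2_OE lay within 100 kb of a feature at 0 in WT. Inside Cep85l, beside the calcium pump regulator gene Pln, MSTRG.7947 was at 0 in FOG2_OE (0.101 CPM in WT, adjusted p = 0.00095 by the authors' deposited table) and MSTRG.7946, 25.4 kb away, at 0 in WT (0.0406 CPM in FOG2_OE, adjusted p = 0.099 by the authors' deposited table). Near Pdcd6ip, MSTRG.87883 at 0 in FOG2_OE and MSTRG.87878 at 0 in WT lay 49.3 kb apart, with adjusted p of 0.00035 and 0.00026 by the authors' deposited table. Near Rmdn2, MSTRG.38723 (0.0540 CPM in WT) and MSTRG.38750 (0.139 CPM in FOG2_OE) lay 89.7 kb apart.

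A RefSeq window of 300 bases around a gene start overlapped 7 members. They were at Mterf4, Gm8075, 6030407O03Rik and 4930429D17Rik for 0 in FOG2_OE, and at 2900026A02Rik, Gm51746 and Atxn7l1 for 0 in WT. The GATA motif AGATAA, on either strand, was found in the window of 4930429D17Rik alone, and it is found in 11.2% of all 32851 windows. The T-box motif AGGTGT, on either strand, was found in the windows of Gm8075 and Atxn7l1, and in 13.7% of all windows.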
